A study of Mus musculus with 73 samples.

Results

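The data described here are the RNA levels of 8 genes that encode chromatin remodelers, Polycomb subunits, HMG proteins and related chromatin factors in mouse tumors and normal tissues. The genes are Hells, Smarca5, Suz12, Eed, Hmgn2, Hmgb1, Cbx5 and Hat1, and they were found by matching these symbols to the gene symbols of the array features. They took 9 of the 9596 features, since Cbx5 had 2 features and each other gene had 1. They were 8 of the 6777 genes with values on the reference arrays and 6 of the 5768 with values on the direct arrays, because Suz12, Hmgb1 and 1 Cbx5 feature had no direct values. None of the 9 features carried more than 1 gene symbol.

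RNA was hybridised to 2-colour cDNA microarrays, which give the ratio of 2 RNAs at each spotted clone. On 35 reference arrays a tumor or normal sample in the Cy3 channel was set against Stratagene Universal Reference RNA in the Cy5 channel. In the C57BL/6 strain these were 5 prostate tumors of PB/SV40 T/t-antigen (TRAMP) mice against 4 wild-type prostates, and 6 seminal vesicle tumors of the same model against 4 wild-type seminal vesicles. In the FVB strain they were 4 mammary tumors of C3(1)/SV40 T/t-antigen mice against 4 wild-type mammary glands, and 4 lung tumors of CC10/SV40 T/t-antigen mice against 4 wild-type lungs. On 38 direct arrays a mammary tumor in Cy5 was set against wild-type mammary gland of its own strain in Cy3. The direct models were C3(1)/SV40 T/t-antigen (FVB, 5 arrays), p53-/- transplants (Balb/c, 5), p53fp/fp;WAP-cre (C57BL6/129sv, 4), Brca1 Co/Co;MMTV-cre;p53 (C57BL6/129sv, 5, with no p53 allele named), and the FVB oncogene models MMTV-her2/neu (5), MMTV-myc (4), MMTV-ras (5) and MMTV-PyMT (5). Large T antigen binds the p53 and retinoblastoma proteins. It is driven here by the probasin promoter in TRAMP mice, by a prostatic steroid binding protein promoter in the C3(1) mice and by the club cell CC10 promoter in the lung model, so each model reaches only the cells that use its promoter, while WAP and MMTV promoters act in mammary epithelium. Ages and sexes are not given, nor is it said that arrays of a group came from separate animals, so p-values measure the spread between these arrays, which may be technical.

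DNA in the nucleus is wrapped around histones, and the proteins encoded by these genes move, mark or bend that fibre. Hells (also Lsh) is a SNF2-family remodeler that is needed for DNA methylation of repeats, and Smarca5 (Snf2h) is the motor of the ISWI remodelers, which space nucleosomes behind replication forks. Suz12 and Eed are core subunits of Polycomb repressive complex 2, in which Ezh2 methylates histone H3. Hmgb1 bends DNA and Hmgn2 binds nucleosomes and loosens the chromatin fibre. Cbx5 encodes the heterochromatin protein HP1 alpha, and Hat1 acetylates new histone H4 before it is deposited on replicated DNA. Many of these genes are transcribed more in dividing than in resting cells, and E2F factors, which the retinoblastoma protein holds in check, regulate several chromatin genes.

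Because 7 of the 8 genes, all but Eed, rose in tumors at all 4 sites, the bases before the annotated starts of these 7 and of Eed are shown, from RefSeq on GRCm38.p6, as the 100 bases ending at the base before the start. Capitals mark an E2F core (the letters TTCCCGC, the form TTCGCGC, the form TTGCCGC or the form TTGGCGC), or else a CCAAT box (these letters), or a CHR element (either TTTGAA, or the form TTCGAA), searched on both strands, so that a box on the opposite strand reads ATTGG. The motifs do not overlap in the stretches shown. All 8 genes had a promoter entry, and 2 of them, Hmgb1 and Cbx5, had 2, of which the first is shown.
Hells, chr19:38930890-38930989, plus strand: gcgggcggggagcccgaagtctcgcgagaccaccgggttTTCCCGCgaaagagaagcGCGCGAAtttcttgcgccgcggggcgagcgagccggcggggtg
Smarca5, chr8:80739460-80739559, minus strand: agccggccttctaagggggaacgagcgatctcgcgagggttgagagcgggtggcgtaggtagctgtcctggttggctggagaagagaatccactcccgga
Suz12, chr11:79993006-79993105, plus strand: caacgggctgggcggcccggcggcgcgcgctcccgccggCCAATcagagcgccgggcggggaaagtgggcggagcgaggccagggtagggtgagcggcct
Hmgn2, chr4:133967992-133968091, minus strand: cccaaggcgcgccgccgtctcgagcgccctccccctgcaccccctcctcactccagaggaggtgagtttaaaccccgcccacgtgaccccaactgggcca
Hmgb1, chr5:149053058-149053157, minus strand: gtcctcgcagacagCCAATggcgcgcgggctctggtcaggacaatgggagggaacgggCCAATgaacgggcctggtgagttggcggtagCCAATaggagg
Cbx5, chr15:103239853-103239952, minus strand: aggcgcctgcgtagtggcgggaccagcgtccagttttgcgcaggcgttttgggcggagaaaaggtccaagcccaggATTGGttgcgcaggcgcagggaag
Hat1, chr2:71389160-71389259, plus strand: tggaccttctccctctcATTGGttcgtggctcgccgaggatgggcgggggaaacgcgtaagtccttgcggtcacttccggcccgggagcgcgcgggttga
Eed, chr7:89980977-89981076, minus strand: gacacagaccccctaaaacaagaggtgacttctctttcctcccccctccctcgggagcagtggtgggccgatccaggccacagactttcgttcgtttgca
Hells carried 2 E2F cores in this stretch, at 61 and 43 bases before its start, Hmgb1 carried 3 CCAAT boxes, and Suz12, Cbx5 and Hat1 carried 1 CCAAT box each. In the full windows of 300 bases, which also take in 50 bases after the start, 2 of the 8 genes had an E2F core (Hells and Suz12), 6 a CCAAT box (all but Hells and Smarca5) and 2 a CHR element (Suz12 and Eed). Counted by window, the members had these motifs in 2, 6 and 2 of 10 windows. Over all 32851 RefSeq windows the shares were 9.57%, 37.4% and 19.2%. Smarca5, Hmgn2 and Eed had no motif within the stretch shown. The CCAAT box of Hmgn2 began 3 bases before the start and ran past it, and the CHR matches of Eed lay 197 and 183 bases before the start. A match describes these letters and does not show binding.

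The deposited values are log ratios whose base and sign no source states. Read as log2, the selection rule of the series text picked 2632 of 9532 features, and as natural or decadic logs 3764 and 4168, of which the first is by far the nearest to the number that text gives, so they are treated as log2. All 8 measured lung epithelium markers were higher in normal lung than in the other normal tissues, as were all 11 adipocyte markers and 7 of 9 milk and luminal markers in normal mammary gland, so a positive reference value is read as more RNA in the sample, and of the prostate list 1 of 3 was higher in normal prostate. No seminal vesicle secretory gene was measured. Direct values, read as tumor over normal, correlated with the mammary tumor change on the reference arrays across 5752 genes (Pearson's r = 0.499, Spearman's rho = 0.380, genes not being independent replicates). Reference arrays held 9244 to 9572 values and direct arrays 7042 to 7934, with array medians of -0.42 to 0.66 on the latter, which were therefore centred. Every reference array correlated best on average with its own group. Of the direct arrays 11 of 38 had a higher mean correlation with another model, most of them myc and ras arrays. Direct C3(1) array 3 stood apart. Its correlations with the other 4 C3(1) arrays were 0.464 to 0.590, against 0.750 with PyMT array 2, and results that use it are given with and without it.

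In tumors at all 4 sites most of these genes had more RNA than in the normal tissue. By limma's moderated test with Benjamini-Hochberg adjustment over all genes and a threshold of 0.05, 7 of 8 rose in TRAMP prostate tumors, where 61.4% of all genes passed and 29.2% rose. All 8 rose in seminal vesicle tumors, where 43.5% passed and 23.3% rose. In C3(1) mammary tumors 7 of 8 rose (36.7% passed, 16.6% rose), and in CC10 lung tumors all 8 (36.5% passed, 16.2% rose). The median change of the 8 genes on the log2 scale was 1.87 in prostate, 0.67 in seminal vesicle, 1.12 in mammary gland and 1.42 in lung, and the median of all genes was -0.03, 0.04, -0.02 and -0.06 at the same sites. No member fell at any site. All tumor arrays lay above all normal arrays for 7 of the 8 genes in prostate (24.9% of all genes), 8 in seminal vesicle (16.7%), 6 in mammary gland (14%) and 8 in lung (15.5%). In seminal vesicle the lowest tumor and highest normal array nearly met for Eed (-0.35 and -0.36) and Cbx5 (-0.78 and -0.79). In bulk tissue, more RNA per cell and more cells that express a gene cannot be told apart. Values of different genes are ratios to the reference RNA, so levels are not compared between genes.

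**Figure D1:**
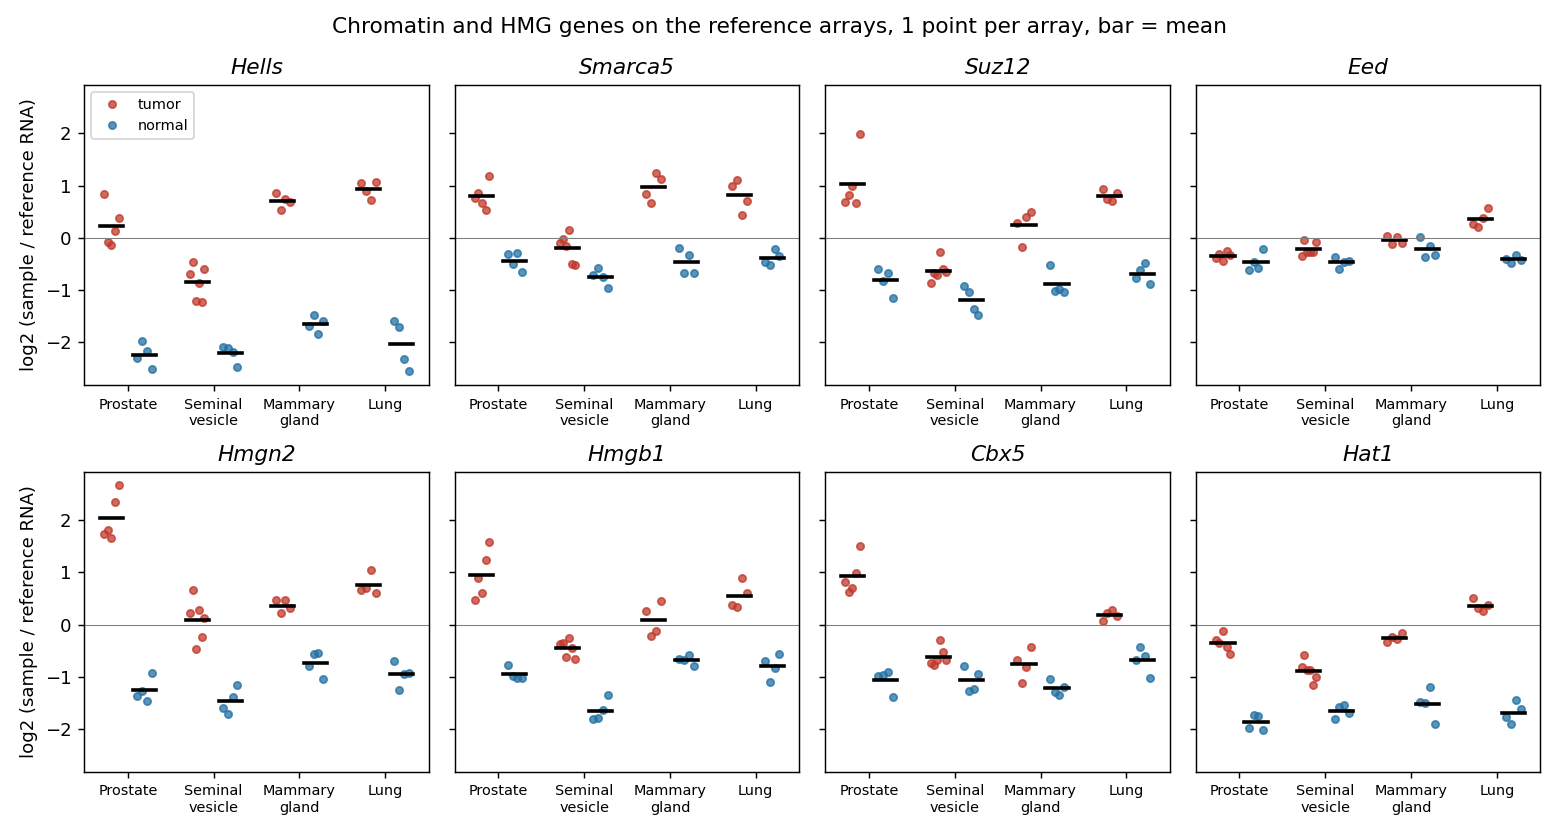
Log2 ratio of sample to reference RNA (vertical axis) for each of the 8 genes, 1 point per array and a bar at the group mean, with tumors (red) left of normal tissue (blue) at each of the 4 sites. Hells tumor arrays lie above all normal arrays at every site, and Eed arrays of both kinds lie close together everywhere but in lung, where tumors average 0.36 and normal lungs -0.41.

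Hells had the largest change of the 8 genes in mammary gland and lung. Its log2 ratios were 0.84, -0.09, -0.15, 0.13 and 0.38 in prostate tumors, against -2.29, -1.97, -2.17 and -2.51 in normal prostate. In seminal vesicle tumors the lowest, median and highest values were -1.23, -0.79 and -0.47, against -2.09, -2.11, -2.18 and -2.47 in normal seminal vesicle. Every tumor array lay above every normal array at both sites, and the seminal vesicle tumors lay below all prostate tumors. In mammary tumors the values were 0.87, 0.53, 0.75 and 0.68, against -1.68, -1.48, -1.83 and -1.59 in normal gland. Lung tumors had 1.05, 0.89, 0.72 and 1.07, against -1.59, -1.71, -2.32 and -2.56 in normal lung. Tumor and normal arrays did not overlap there either. The changes were 2.46 ± 0.18 in prostate (SE, limma adjusted p = 3.93e-13), 1.37 ± 0.18 in seminal vesicle (4.93e-07), 2.35 ± 0.20 in mammary gland (2.72e-11) and 2.97 ± 0.20 in lung (3.31e-13), or 5.51-fold, 2.58-fold, 5.09-fold and 7.86-fold. With array runs as a fixed factor the seminal vesicle call was lost (1.15, adjusted p = 0.0908). Its promoter is the one above with 2 E2F cores.

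Smarca5, the other remodeler motor, changed by 1.20 to 1.43 on the log2 scale at 3 of the 4 sites and less in seminal vesicle. Tumor arrays ranged over 0.54 to 1.19 in prostate, -0.52 to 0.14 in seminal vesicle, 0.68 to 1.23 in mammary gland and 0.44 to 1.11 in lung. Normal arrays ranged over -0.66 to -0.30, -0.96 to -0.58, -0.67 to -0.19 and -0.53 to -0.22 at the same sites. The groups did not overlap at any site, although in seminal vesicle the lowest tumor and the highest normal array were close. The changes were 1.25 ± 0.15 in prostate (limma adjusted p = 1.33e-08), 0.56 ± 0.14 in seminal vesicle (0.00233), 1.43 ± 0.16 in mammary gland (9.61e-09) and 1.20 ± 0.16 in lung (3.27e-07). Under quantile normalization the seminal vesicle call was lost (0.37, adjusted p = 0.0551).

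The 2 Polycomb subunits differed from each other. Suz12 had 0.68, 0.81, 1.00, 0.67 and 1.98 in prostate tumors, against -0.59, -0.82, -0.67 and -1.15 in normal prostate, and tumor array 5 stood far above the other 4. Seminal vesicle tumors had -0.87, -0.67 and -0.28 as lowest, median and highest value, against -0.92, -1.04, -1.36 and -1.48 in normal seminal vesicle. These groups did not overlap, but the lowest tumor and the highest normal array lay close together. Mammary tumors had 0.28, -0.17, 0.40 and 0.50, against -0.51, -1.02, -0.97 and -1.05 in normal gland, and lung tumors 0.93, 0.74, 0.70 and 0.87, against -0.77, -0.62, -0.49 and -0.89 in normal lung. Both pairs of groups were separate. The changes were 1.84 ± 0.19 in prostate (limma adjusted p = 4.61e-10), 0.56 ± 0.18 in seminal vesicle (0.0124), 1.14 ± 0.20 in mammary gland (2.34e-05) and 1.50 ± 0.20 in lung (3.44e-07). The seminal vesicle call was lost without normal seminal vesicle array 4 (0.47, adjusted p = 0.0583), under quantile normalization (0.22, adjusted p = 0.404).

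Eed, the subunit that reads methylated histone H3, stayed within a narrow range in most groups. It had -0.39, -0.31, -0.45, -0.26 and -0.33 in prostate tumors, against -0.61, -0.47, -0.58 and -0.22 in normal prostate, and 0.03, -0.11, 0.02 and -0.10 in mammary tumors, against 0.01, -0.38, -0.15 and -0.34 in normal gland. At both sites the groups overlapped. The differences, 0.12 ± 0.09 (95% interval -0.06 to 0.31, limma adjusted p = 0.246) and 0.17 ± 0.10 (-0.03 to 0.37, 0.173), did not pass. In lung tumors it had 0.27, 0.21, 0.38 and 0.57, against -0.41, -0.48, -0.34 and -0.43 in normal lung, with no overlap and a rise of 0.77 ± 0.10 (1.27e-07). Seminal vesicle tumors had -0.35, -0.27 and -0.05 as lowest, median and highest value, against -0.36, -0.60, -0.47 and -0.44 in normal seminal vesicle. That rise of 0.25 ± 0.09 (0.0205) was lost without normal seminal vesicle array 2 or tumor array 2 (highest adjusted p = 0.0869), with array runs as a fixed factor (0.24, adjusted p = 0.525) and under quantile normalization (0.09, adjusted p = 0.553).

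Among the HMG genes, Hmgn2 had the largest change of any member in prostate and in seminal vesicle. Its values were 1.74, 1.80, 1.65, 2.34 and 2.67 in prostate tumors, against -1.37, -1.26, -1.47 and -0.93 in normal prostate. Seminal vesicle tumors had -0.48, 0.17 and 0.66 as lowest, median and highest value, against -1.60, -1.72, -1.38 and -1.16 in normal seminal vesicle. The prostate tumors lay above every other array of the 35. In mammary tumors the values were 0.47, 0.22, 0.47 and 0.31, against -0.80, -0.57, -0.55 and -1.05 in normal gland. Lung tumors had 0.66, 0.70, 1.04 and 0.61, against -0.69, -1.25, -0.95 and -0.93 in normal lung. Tumor and normal arrays did not overlap at any site. The changes were 3.30 ± 0.19 in prostate (9.84-fold, limma adjusted p = 7.49e-16), 1.56 ± 0.18 in seminal vesicle (1.14e-07), 1.10 ± 0.20 in mammary gland (4.06e-05) and 1.70 ± 0.20 in lung (3.99e-08).

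Hmgb1 ranged over 0.46 to 1.57 in prostate tumors, -0.66 to -0.26 in seminal vesicle tumors, -0.22 to 0.45 in mammary tumors and 0.34 to 0.89 in lung tumors. Normal prostate had -1.03 to -0.77, normal seminal vesicle -1.81 to -1.35, normal mammary gland -0.79 to -0.59 and normal lung -1.09 to -0.57. Tumor and normal arrays were separate at each site. The changes were 1.91 ± 0.17, 1.20 ± 0.16, 0.77 ± 0.17 and 1.35 ± 0.17 in prostate, seminal vesicle, mammary gland and lung (limma adjusted p = 1.06e-11, 7.02e-07, 0.000647 and 2.31e-07). Its promoter is the one above with 3 CCAAT boxes.

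Cbx5, which binds methylated histone H3 in heterochromatin, had 0.81, 0.63, 0.70, 0.98 and 1.51 in prostate tumors, against -0.99, -0.97, -0.91 and -1.38 in normal prostate. Mammary tumors had -0.67, -1.11, -0.82 and -0.42, against -1.04, -1.29, -1.36 and -1.20 in normal gland. The prostate groups lay far apart, while mammary tumor array 2 fell within the normal range. Seminal vesicle tumors had -0.78, -0.68 and -0.30 as lowest, median and highest value, against -0.79, -1.27, -1.23 and -0.95 in normal seminal vesicle. Lung tumors had 0.07, 0.22, 0.27 and 0.15, against -0.68, -0.43, -0.60 and -1.02 in normal lung. The changes were 1.99 ± 0.15 in prostate (limma adjusted p = 5.26e-13), 0.44 ± 0.15 in seminal vesicle (0.0138), 0.47 ± 0.16 in mammary gland (0.0201) and 0.86 ± 0.16 in lung (6.01e-05). The seminal vesicle call was lost under quantile normalization (0.12, adjusted p = 0.598) and without normal array 2 or 3 (highest adjusted p = 0.0617) and the mammary call without normal array 3 or tumor array 4 (highest adjusted p = 0.103). The 2 Cbx5 features gave 2.14 and 1.84 in prostate, 0.46 and 0.42 in seminal vesicle, 0.51 and 0.43 in mammary gland and 0.82 and 0.91 in lung. They had the same sign at each site, and in mammary gland the first did not pass on its own (adjusted p = 0.0524).

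Hat1, the histone acetyltransferase, had its largest change in lung. Tumor arrays ranged over -0.56 to -0.12 in prostate, -1.16 to -0.59 in seminal vesicle, -0.33 to -0.15 in mammary gland and 0.26 to 0.50 in lung. Normal arrays ranged over -2.03 to -1.73, -1.80 to -1.55, -1.90 to -1.21 and -1.91 to -1.45 at the same sites. The groups were separate at all 4. The changes were 1.52 ± 0.12 in prostate (limma adjusted p = 8.53e-13), 0.77 ± 0.11 in seminal vesicle (2.93e-06), 1.27 ± 0.12 in mammary gland (7.19e-10) and 2.05 ± 0.12 in lung (5.34e-14).

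**Figure D2:**
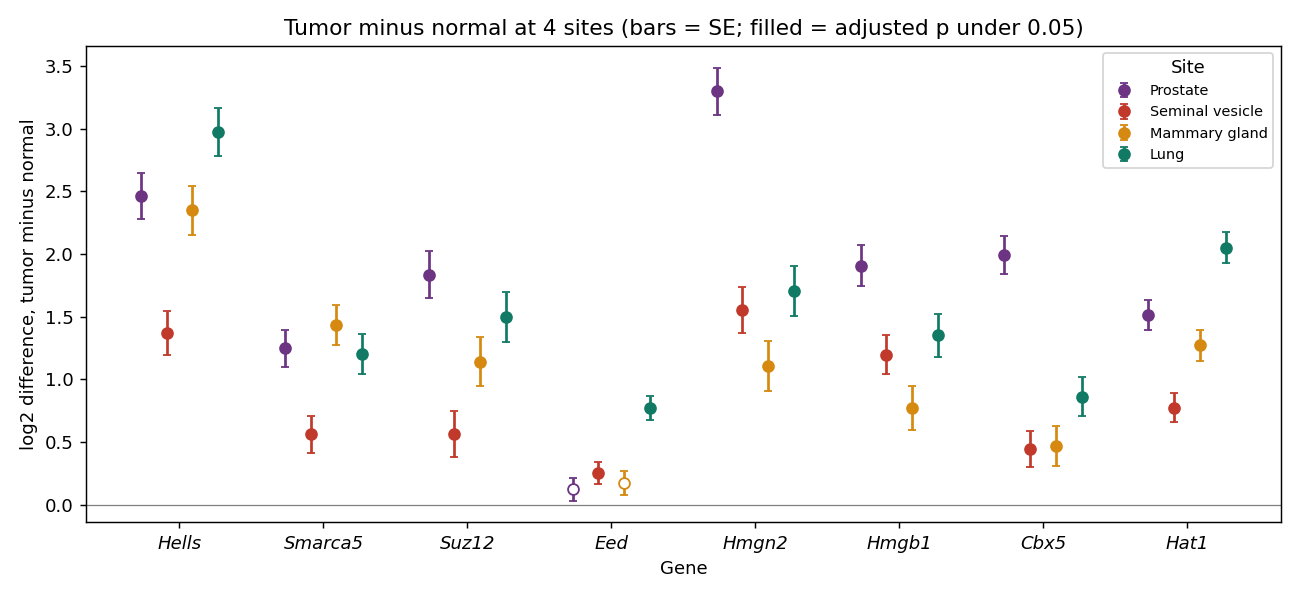
Difference between tumor and normal group means on the log2 scale (vertical axis) for each gene at the 4 sites, with bars for the SE of the fit and filled points where the limma adjusted p was under 0.05. Hmgn2 in prostate (3.30) and Hells in lung (2.97) lie highest, and Eed in prostate (0.12) and mammary gland (0.17) are the only open points.

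How far the tumor change depended on the site was tested next. The moderated F test found a difference among the 4 sites for all 8 genes (limma adjusted p = 1.46e-07 for Hmgn2 to 0.00272 for Smarca5), as it did for 74.1% of all genes. The change was larger in prostate than in seminal vesicle, both from TRAMP mice, for 7 of 8 members, against 46.7% of all genes that passed and 22.6% with a larger change in prostate. The differences in change were 1.74 ± 0.26 for Hmgn2, 1.54 ± 0.21 for Cbx5, 1.27 ± 0.26 for Suz12, 1.09 ± 0.26 for Hells, 0.74 ± 0.16 for Hat1, 0.71 ± 0.23 for Hmgb1 and 0.69 ± 0.21 for Smarca5. Eed gave -0.13 ± 0.13 (limma adjusted p = 0.427). Only Hmgn2 and Cbx5 passed with array runs as a fixed factor or when each array's mean over the skeletal muscle markers was added to the model. The labels give no run, and here a run is a block of consecutive array database numbers. Tumor and normal seminal vesicle arrays shared no run, and the run factor ties the normal ones to the rest through 1 mammary tumor array. Within run 1, which held 3 normal prostates and prostate tumor array 5, the prostate change was 4.03 for Hmgn2, 2.68 for Suz12 and 2.53 for Hells. These rest on that 1 tumor array. Of the prostate tumors it had the highest value for Smarca5, Suz12, Hmgn2, Hmgb1 and Cbx5 and the lowest for Hat1 (-0.56).

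The mammary change was smaller than the lung change for 2 of 8 members, against 24.2% of all genes that passed and 12% with a smaller change in mammary gland. These were Hat1 (-0.78 ± 0.18, limma adjusted p = 0.00134) and Eed (-0.60 ± 0.14, 0.00139). Hells (-0.63 ± 0.28, 0.0973), Hmgn2 (-0.60 ± 0.28, 0.126) and Hmgb1 (-0.58 ± 0.25, 0.0847) had differences of like size that did not pass. Within run 1, which held 3 arrays of each of the 4 groups, these 3 passed as well (-0.82, -0.67 and -0.66). Comparisons that share a control group are not independent, and each is given by its own values.

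Among tumors, those of the prostate had more RNA than those of the seminal vesicle for 7 of 8 members (60.7% of all genes passed, 29.3% higher). The differences ran from 0.53 ± 0.11 for Hat1 to 1.95 ± 0.17 for Hmgn2, and Eed gave -0.13 ± 0.08 (limma adjusted p = 0.171). Within run 6, which held 4 prostate and 2 seminal vesicle tumors, the same 7 passed, at 0.43 for Hat1 and 1.79 for Hmgn2. Mammary tumors had less RNA than lung tumors for 4 of 8 (23.9% of all genes passed, 9.27% lower), namely Cbx5 (-0.93 ± 0.16), Hat1 (-0.61 ± 0.12), Suz12 (-0.56 ± 0.20) and Eed (-0.40 ± 0.10). The Suz12 call (adjusted p = 0.0391) was lost in 6 of the 8 fits that left out 1 of these arrays (highest 0.162). Normal tissues differed in few of the genes. Hmgb1 was higher in normal prostate than in normal seminal vesicle (0.70 ± 0.17, limma adjusted p = 0.0013), where 1 of 8 members and 50.1% of all genes passed (24.6% higher). Cbx5 was lower in normal mammary gland than in normal lung (-0.54 ± 0.16, 0.00952), where 1 of 8 members and 29.9% of all genes passed (12.6% lower).

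The order of the group means followed tumor against normal tissue for most members. Hells stood highest in lung tumors (0.93 ± 0.16, SD, n = 4), followed by mammary tumors (0.70 ± 0.14, n = 4), prostate tumors (0.22 ± 0.40, n = 5) and seminal vesicle tumors (-0.85 ± 0.32, n = 6). All 4 normal groups came after these, at -1.64 to -2.24, and overlapped one with the next. Smarca5 was highest in mammary tumors (0.97 ± 0.26), with lung (0.81 ± 0.30) and prostate tumors (0.80 ± 0.25) overlapping. Suz12, Hmgn2, Hmgb1 and Cbx5 were highest in prostate tumors, and only for Hmgn2 and Cbx5 did no other group reach into their range. Eed (0.36 ± 0.16) and Hat1 (0.36 ± 0.10) were highest in lung tumors, above every array of the next group. Below its top group, the next group of Eed down each overlapped its neighbour. For Cbx5 the mammary tumors (-0.75 ± 0.29) came below normal lung (-0.68 ± 0.25), with overlap.

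Markers of dividing and of other cells moved with the same groups. The mean of 16 proliferation markers was 0.66 in prostate tumors (0.48 to 1.00) and -1.54 in normal prostate (-1.78 to -1.44), -0.65 (-0.93 to -0.34) and -1.61 (-1.68 to -1.58) in seminal vesicle tumors and normal vesicles, 0.14 (-0.14 to 0.28) and -1.40 (-1.49 to -1.35) in mammary tumors and normal glands, and 0.47 (0.33 to 0.63) and -1.24 (-1.59 to -1.01) in lung tumors and normal lungs. Of these markers 15 of 16, 13, 16 and 16 rose at the 4 sites in that order. In prostate all 13 skeletal muscle markers fell, with means of -0.15 to 0.11 over the tumors and 3.65 to 4.57 over the normal prostates, and all 10 epithelial markers fell, with means of -0.80 to -0.51 and 1.35 to 1.58. In mammary gland all 11 adipocyte markers fell (0.35 to 1.86 in tumors, 3.12 to 3.47 in normal glands) and 10 of 11 lymphocyte markers fell (-0.42 to -0.13 and 0.29 to 0.89). In lung all 8 endothelial markers fell (0.53 to 0.91 in tumors, 1.72 to 2.45 in normal lungs) and 9 of 10 general epithelial markers rose. The mean of 8 lung epithelium markers went the other way, with overlap (2.36 to 2.88 in tumors, 2.79 to 3.63 in normal lungs). Fibroblast and matrix means were also lower in lung tumors (-1.65 to -1.38, against -0.47 to -0.10). In seminal vesicle 8 of 9 fibroblast and matrix markers rose (-0.89 to 0.55 in tumors, -1.82 to -1.57 in normal vesicles). When each array's muscle marker mean was added to the model the prostate changes were 3.26 for Hmgn2, 2.49 for Hells and 1.18 for Smarca5, and the same 7 members passed. The muscle means of tumor and normal prostates lay far apart without overlap, so this fit cannot separate muscle content from the tumor change. The part of these markers in the results was not tested.

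Across the 35 reference arrays the 8 genes rose and fell together between groups more than within them. Over the 28 pairs Pearson's r had a median of 0.814 (0.245 for Eed and Cbx5 to 0.942 for Hells and Hat1). The arrays share groups and runs, and after the group means were taken out the median was 0.138, the range -0.336 to 0.738 and 20 of 28 pairs were above 0. Suz12 with Cbx5 (0.738), Hmgn2 with Hmgb1 (0.660) and Suz12 with Smarca5 (0.636) had the highest of these. The 2 Polycomb subunits, Suz12 and Eed, had 0.483 over all arrays and 0.0312 within groups.

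The genes most like each member were sought among 6228 genes with values on all 35 arrays, by Pearson's r. Group means were not taken out here, so r also holds the differences between tumor and normal groups. Hells was most like Anln (0.976), a cytokinesis protein, Lta (0.963), a cytokine of the TNF family, and Ccna2 (0.940), the S-phase cyclin A. Hat1 was most like Rbl1 (0.955), Anln (0.950) and Lta (0.949). Smarca5 had Nucks1 (0.956), Cnot7 (0.945) and Stag1 (0.943), and Suz12 had Xpo1 (0.959), Spag5 (0.954) and Top2a (0.952), the topoisomerase of dividing cells. For Hmgn2 they were Map1b (0.977), a microtubule-associated protein of neurons, Tubb5 (0.971), a tubulin, and Nelfb (0.952). Hmgb1 had Rrm1 (0.968), Rad21 (0.965) and Rbbp6 (0.965). Cbx5 had Med22 (0.987), Ckap5 (0.909) and Cep83 (0.906). Eed had its nearest genes at lower values, with Gabpb2 (0.864), Taf4 (0.830) and Ppic (0.820).

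**Figure D3:**
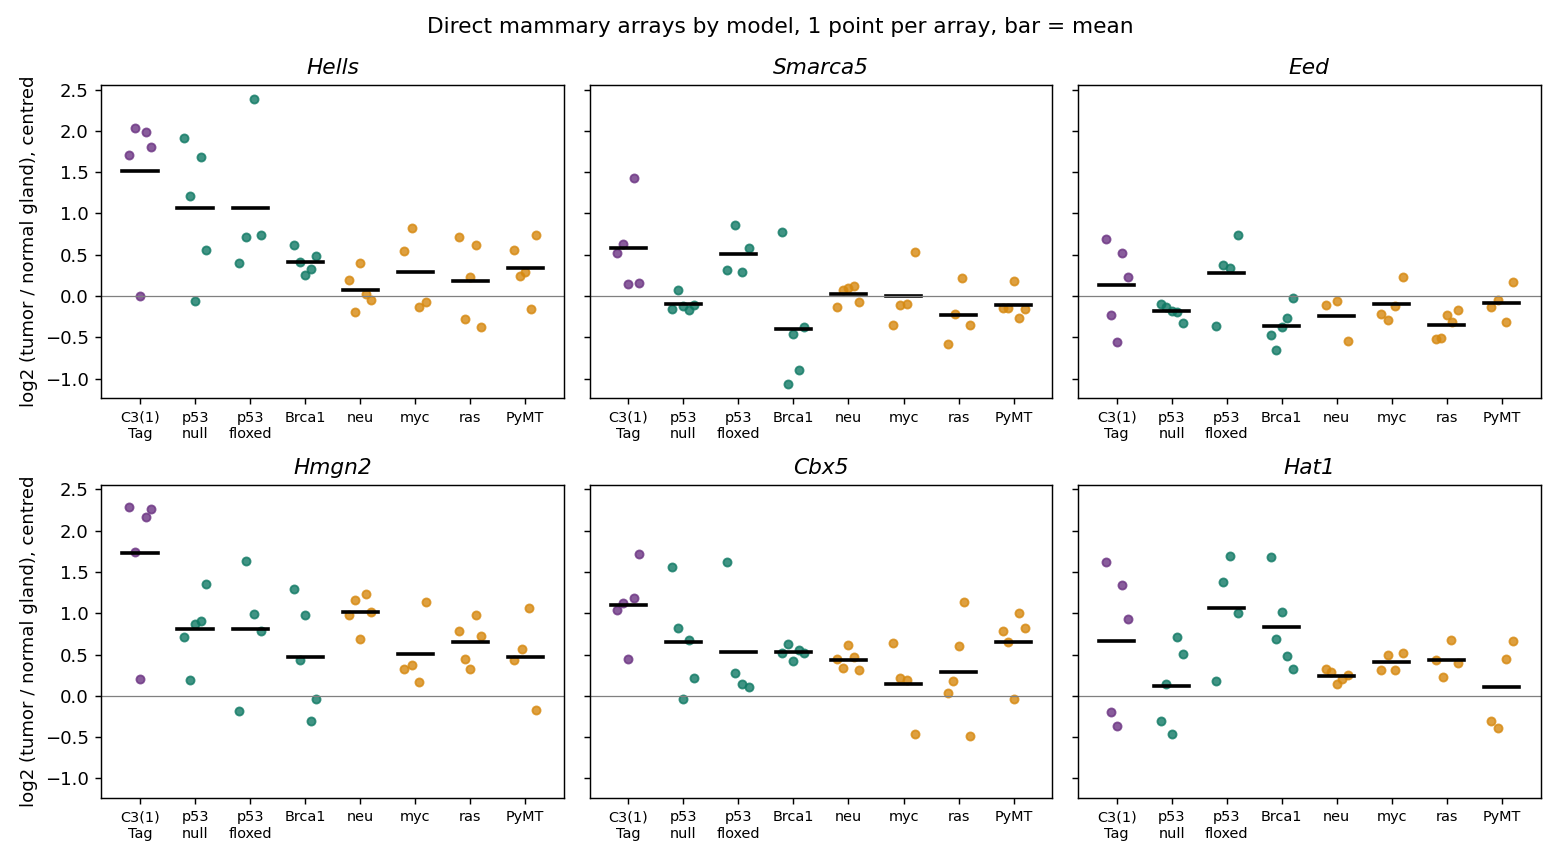
Log2 ratio of mammary tumor to normal gland on the direct arrays, centred on each array's median (vertical axis), for the 6 genes measured there, with 1 point per array and a bar at the mean of each of the 8 models. Hells and Hmgn2 of 4 C3(1) Tag arrays lie at 1.71 or above, and the low point in both panels is C3(1) array 3.

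Tumor was in Cy5 on all direct arrays, so dye bias does not cancel in the tumor over normal ratios below, though it cancels between models. On these arrays the C3(1) Tag model had the most calls, with 5 of the 6 measured members higher in tumors (41.8% of 5768 genes passed, 22.4% higher). Hells had 1.71, 2.03, 0.0035, 1.99 and 1.81 on the 5 arrays, so array 3 alone was near 0. Hmgn2 had 2.28, 1.74, 0.21, 2.16 and 2.26, with the same array lowest. The ratios were 1.51 ± 0.25 for Hells (limma adjusted p = 1.36e-05), 1.73 ± 0.24 for Hmgn2 (8.28e-07), 1.10 ± 0.20 for Cbx5 (6.4e-05), 0.58 ± 0.17 for Smarca5 (0.00653) and 0.67 ± 0.22 for Hat1 (0.0168), while Eed had 0.13 ± 0.14 (0.467). Without array 3 they were 1.89 ± 0.24, 2.11 ± 0.23, 1.27 ± 0.22, 0.69 ± 0.19 and 0.93 ± 0.23, all of which passed, and Eed had 0.30 ± 0.14 (0.0865). Hat1 had 1.62, -0.19, -0.37, 1.34 and 0.93, with arrays 2 and 3 below 0. Its call was lost without array 1, 4 or 5 (highest adjusted p = 0.152). The call of Smarca5 was lost without array 4 (0.37, adjusted p = 0.0965). On the reference arrays, where normal glands were measured on their own arrays, the same model had 2.35 for Hells and 1.10 for Hmgn2. Whether the normal glands of both designs came from the same animals is not given.

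Tumors of the p53-/- transplants had more Hells, Hmgn2 and Cbx5 RNA than normal gland, 3 of 6 members (20.8% of genes passed, 9.66% higher). Hells had 1.91, 1.22, -0.05, 1.69 and 0.55, with array 3 just below 0. Its mean ratio was 1.06 ± 0.25 (limma adjusted p = 0.00167), that of Hmgn2 0.81 ± 0.24 (0.0127) and that of Cbx5 0.65 ± 0.20 (0.0196). Without array 5 the Hmgn2 call was lost (0.67, adjusted p = 0.0699), and without array 1, 2 or 4 that of Cbx5 (highest adjusted p = 0.192). In p53fp/fp;WAP-cre tumors 4 of 6 were higher (29.1% passed, 18% higher), namely Hells (1.06 ± 0.28), Hat1 (1.06 ± 0.25), Hmgn2 (0.81 ± 0.27) and Smarca5 (0.51 ± 0.19). Hells there had 0.40, 0.72, 2.38 and 0.74, and its call was lost without array 3 (0.62, adjusted p = 0.131). Leaving out any 1 array ended the Smarca5 call, and any but array 1 that of Hmgn2. Cbx5 had 1.62 on array 1 and 0.11 to 0.28 on the other 3 (0.54 ± 0.23, adjusted p = 0.0732). Hat1 had 0.18, 1.37, 1.69 and 1.01, and its call held in every such fit.

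In Brca1 Co/Co;MMTV-cre;p53 tumors 2 of 6 members were higher and 1 lower (47.4% of genes passed, 26.2% higher and 21.2% lower). Hat1 had 1.68, 0.69, 1.01, 0.48 and 0.32, all above 0, with a mean of 0.84 ± 0.22 (limma adjusted p = 0.00247). Cbx5 had 0.51, 0.63, 0.42, 0.55 and 0.52, which differ little, with a mean of 0.53 ± 0.20 (0.0323), where the SE is of the fit over all models. Its call was lost without any 1 of the 5 arrays (highest adjusted p = 0.0817). Eed was lower, at -0.36 ± 0.14 (0.0341), which was lost without array 1, 2 or 3 (highest 0.146) and on the deposited scale (-0.17, adjusted p = 0.456). Hells had 0.26 to 0.62 on the 5 arrays, with a mean of 0.42 ± 0.25 that did not pass (0.167). Smarca5 had 0.78, -1.06, -0.46, -0.89 and -0.37, so that 4 of the 5 arrays lay below 0 and array 1 above it. Its mean of -0.40 ± 0.17 did not pass (limma adjusted p = 0.0504), and without array 1 it was -0.69 and passed.

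The 4 FVB oncogene models had 2 calls in all. Eed lacked a value on 2 neu arrays and 1 PyMT array, Smarca5 on 1 ras array, Hmgn2 on 1 PyMT array and Hat1 on 1 ras and 1 PyMT array, and the fit used the remaining arrays. In MMTV-her2/neu tumors 1 of 6 members passed (25.9% of genes, 15% higher), Hmgn2 with 0.98, 1.16, 0.69, 1.23 and 1.02, a narrow range with a mean of 1.02 ± 0.24 (limma adjusted p = 0.00177). In MMTV-PyMT tumors 1 of 6 passed (30.3%, 18.3% higher), Cbx5 with 0.79, 0.66, -0.04, 1.01 and 0.82 and a mean of 0.65 ± 0.20 (0.0152), lost without array 1, 4 or 5 (highest 0.0632). No member passed in MMTV-myc (23.1% of genes) or MMTV-ras tumors (18.9%) by limma's test. Means there ran from -0.10 for Eed to 0.50 ± 0.27 for Hmgn2 in myc tumors, and from -0.35 for Eed to 0.65 ± 0.24 for Hmgn2 in ras tumors, the last with adjusted p = 0.0507. Hells means were 0.08 ± 0.25 in neu, 0.29 ± 0.28 in myc, 0.18 ± 0.25 in ras and 0.34 ± 0.25 in PyMT tumors, and none of them passed.

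Differences between the models were tested directly. By the moderated F test 3 of 6 members differed among the 8 models, Hells (limma adjusted p = 0.00826), Smarca5 (0.0152) and Hmgn2 (0.038), against 41.9% of all genes. The C3(1) Tag ratio was above the mean of the 4 FVB oncogene models for 4 of 6 members, against 11.7% of genes that passed and 7% higher. Hells differed by 1.29 ± 0.28 (0.00238), Hmgn2 by 1.07 ± 0.27 (0.00765), Cbx5 by 0.72 ± 0.23 (0.0342) and Smarca5 by 0.66 ± 0.19 (0.0221). Without C3(1) array 3 these were 1.66 ± 0.27, 1.45 ± 0.25, 0.89 ± 0.24 and 0.77 ± 0.21, and Eed passed as well (0.49 ± 0.16, adjusted p = 0.0388). The Cbx5 difference was lost without any 1 of the other 4 C3(1) arrays (highest 0.163), and that of Smarca5 without array 2 or 4 (highest 0.145). The p53 and Brca1 models together were above the oncogene models for Hells alone (0.62 ± 0.20, 0.0155), 1 of 6 members against 29% of all genes (14.4% higher). Strain, array run and model class cannot be told apart there, since arrays of the p53 and Brca1 models shared no run with those of any other model. The Hells call was lost on the deposited scale (0.56, adjusted p = 0.0548). The Hells means were 1.06 in p53-/-, 1.06 in p53fp/fp;WAP-cre and 0.42 in Brca1 tumors, against 0.08 in neu, 0.29 in myc, 0.18 in ras and 0.34 in PyMT tumors. Between myc and the mean of neu, ras and PyMT no member passed (0.0173% of genes did), with differences of -0.31 ± 0.26 for Cbx5 to 0.15 ± 0.29 for Hat1.

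Cell type markers differed between models too. The mean of the measured proliferation markers, as tumor over normal, was 1.37 in Brca1 tumors and 1.31 in C3(1) Tag tumors (0.60 to 1.64 over its arrays), and 0.32 to 0.89 in the other 6 models. The skeletal muscle mean was -4.23 to -2.23 and the adipocyte mean -3.27 to -1.75 over the 8 models, so muscle and fat genes were lower in tumors on all of them. Their part in the results above was not tested.

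Partners and paralogs of the members and some division markers were named by a fixed list, of which 17 of 34 genes were measured. Not measured were Ezh2, Rbbp4, Rbbp7, Baz1a, Smarca1, Smarca4, Trim28, Hmgb2, Hmgb3, Hmgn1, Hmgn3, Hmga1, Hmga2, Cdca7, Chaf1a, Kat2a and Pcna. Of the Polycomb complex, Mtf2, which helps it bind CpG islands, rose in prostate (0.52 ± 0.09), mammary gland (0.50 ± 0.09) and lung (0.40 ± 0.09) and had -0.03 ± 0.09 in seminal vesicle. Jarid2, a substoichiometric subunit, rose in seminal vesicle (0.31 ± 0.11), fell in mammary gland (-0.44 ± 0.12) and did not pass in prostate (0.14 ± 0.11) or lung (0.12 ± 0.12). Of the ISWI partners, Baz1b rose in prostate (1.16 ± 0.13), lung (0.49 ± 0.14) and seminal vesicle (0.41 ± 0.12), as did Rsf1 (0.64 ± 0.17, 0.55 ± 0.18 and 0.59 ± 0.16), and neither passed in mammary gland (0.08 ± 0.14 and 0.11 ± 0.18). Of the HP1 paralogs, Cbx1 rose at all 4 sites (0.49 ± 0.13 in seminal vesicle to 1.48 ± 0.14 in prostate), while Cbx3 passed in prostate (0.68 ± 0.24) and lung (0.85 ± 0.25). Lbr, the lamin B receptor that binds HP1, rose at all 4 sites within a narrow range, 0.93 ± 0.13 in lung to 1.24 ± 0.13 in prostate, and by 0.95 ± 0.19 on the direct C3(1) arrays.

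Of the DNA methylation genes, Uhrf1, which brings Dnmt1 to replicated DNA, rose by 2.50 ± 0.17 in prostate, 0.73 ± 0.16 in seminal vesicle, 1.70 ± 0.18 in mammary gland and 1.40 ± 0.18 in lung. The maintenance methylase Dnmt1 itself rose by 1.01 ± 0.11, 0.61 ± 0.11 and 0.48 ± 0.12 in prostate, seminal vesicle and lung and did not pass in mammary gland (0.23 ± 0.12). Among histone chaperones, which share the new histones that Hat1 acetylates, Chaf1b rose at all 4 sites (0.94 ± 0.17 in lung to 1.96 ± 0.16 in prostate). Asf1a rose in prostate (0.66 ± 0.08) and lung (0.48 ± 0.09) and fell in seminal vesicle (-0.29 ± 0.08). Nasp fell in prostate (-0.91 ± 0.16) and did not pass at the other 3 sites (0.07 to 0.32), whereas its direct C3(1) ratio was 2.03 ± 0.25, so the same model gave 0.11 ± 0.17 on the reference arrays and a large rise on the direct ones. Dye bias does not cancel in the direct ratio, and its part in this was not tested. The deacetylase Hdac1 rose in prostate (1.05 ± 0.14) and seminal vesicle (0.91 ± 0.13), and had 0.0035 ± 0.15 in mammary gland and 0.24 ± 0.15 in lung. Hdac2 rose at all 4 sites, by 1.24 ± 0.09 in prostate and 0.25 to 0.43 at the others. The division markers Mki67 (0.80 ± 0.25 to 2.63 ± 0.28), Top2a (1.61 ± 0.18 to 3.71 ± 0.19) and Ccna2 (1.13 ± 0.20 to 4.06 ± 0.21) rose at all 4 sites, each least in seminal vesicle. Rose and fell are used here of limma calls at an adjusted p under 0.05.

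**Figure D4:**
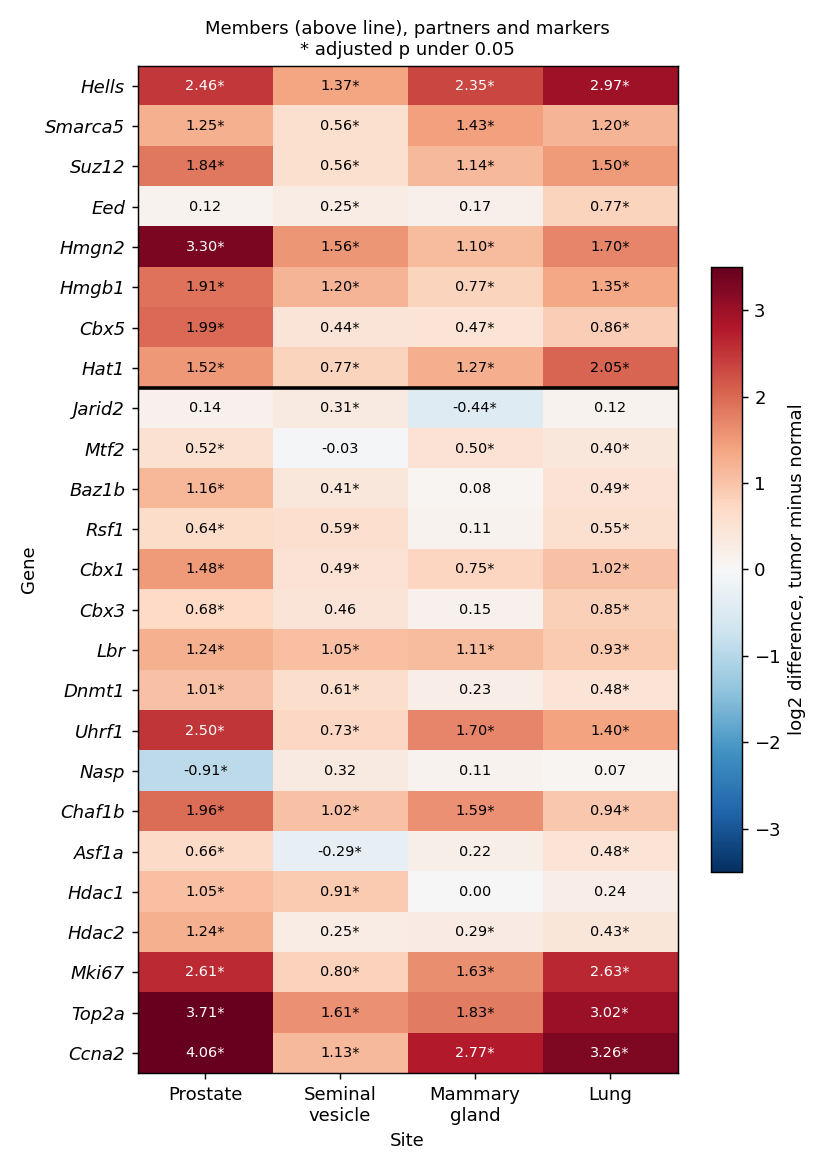
Difference between tumor and normal means on the log2 scale (printed and shown by colour) at the 4 sites for the 8 members, above the line, and 17 partner and marker genes, with a star where the limma adjusted p was under 0.05. Lbr, Cbx1, Uhrf1, Chaf1b and Hdac2 are starred and positive at every site, and Nasp is negative in prostate (-0.91).

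The chromatin lists were counted without the members themselves. In the order prostate, seminal vesicle, mammary gland and lung, the genes that rose were 1, 2, 2 and 1 of 5 for the Polycomb complex PRC2, 3, 3, 2 and 0 of 6 for PRC1, and 7, 5, 1 and 3 of 10 for ISWI and CHD remodelers. They were 7, 6, 3 and 2 of 14 for SWI/SNF and INO80 remodelers, 5, 6, 3 and 4 of 7 for DNA methylation, and 3, 1, 1 and 1 of 3 for other HMG genes. HP1 and heterochromatin genes gave 6, 3, 3 and 4 of 7, and histone chaperones 5, 3, 3 and 4 of 9. Histone acetylation genes gave 8 of 15, 8 of 15, 4 of 14 and 6 of 15. Falls were 0 to 3 in each list at each site, with 3 of 6 PRC1 genes lower in mammary gland and in lung and 3 of 14 SWI/SNF and INO80 genes lower in mammary gland. Over all genes 29.2%, 23.3%, 16.6% and 16.2% rose, and 32.2%, 20.2%, 20.1% and 20.4% fell.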

How the data were processed

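Gene expression was measured on 73 two-channel cDNA arrays, of which 35 used a common reference RNA and 38 set tumor directly against normal gland. The authors deposited 1 normalized log ratio per feature and array. Its base was settled as log2 from the series text's own feature count, and image analysis, background correction and normalization are not given in the sources used here. The deposited log2 values hold no signal or depth, so precision rests on the number of arrays. Of the features 7486 carried 1 gene symbol in the platform annotation, 483 several and 1627 none, and the last 2 kinds were left out. Symbols were updated by gene ID for 7395 features and kept as deposited for 91. The mean of a gene's features was taken for 631 genes.

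Reference arrays were used as deposited and direct arrays were centred on their median. Group means were fitted with limma 3.58.1 in R 4.3.3 (lmFit, contrasts, eBayes), all groups of a set in 1 fit, with at least 3 values in each group, and p-values were adjusted by Benjamini-Hochberg over all genes. There were 11 comparisons on reference and 12 on direct arrays. The fitting code was tested on simulated data. A gene passed at an adjusted p under 0.05. The members, the partner and marker lists, the runs (array numbers more than 20 apart start a new run) and the tests were chosen with earlier results of these data known. The text names the 8 members in each tumor against normal comparison on the reference arrays. In other comparisons it names mainly members that passed, and only some of those that did not. It also names the 34 listed partners and markers where measured, and the 3 genes most correlated with each member. Same-numbered samples were not treated as pairs, since the labels tie them to no shared animal, litter or day and their deviations did not correlate for every number. No 2 arrays were duplicates (highest r = 0.962).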

Additional observations from a re-analysis of the deposited data

Results flagged for a closer look

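Of 111 groups of 4 or more arrays tested with Dixon's ratio, 9 held an array far from the others, and chance flags about 1 in 20 groups. On the reference arrays these were prostate tumor array 5 for Suz12 (1.98), normal mammary array 1 for Suz12 (-0.51), normal prostate array 1 for Hmgb1 (-0.77) and normal prostate array 4 for Cbx5 (-1.38). On the direct arrays they were C3(1) Tag array 3 for Hells (0.0035) and for Hmgn2 (0.21), p53-/- transplant array 2 for Smarca5 (0.071), PyMT array 3 for Smarca5 (0.18) and p53fp/fp;WAP-cre array 1 for Cbx5 (1.62). Prostate tumor array 5 is the only prostate tumor in run 1. Over all genes C3(1) array 3 had a mean correlation of 0.530 with its own model and 0.590 with PyMT. C3(1) arrays 1 and 5 had higher means with PyMT (0.629 and 0.655), but still higher ones with their own model (0.657 and 0.691).

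The tumor change differed between sites or models by limma's test of the difference. It was larger in prostate than in seminal vesicle for Hmgn2 (1.74), Cbx5 (1.54), Suz12 (1.27), Hells (1.09), Hat1 (0.74), Hmgb1 (0.71) and Smarca5 (0.69). Of all genes 46.7% passed there and 22.6% had a larger change in prostate. Only Hmgn2 and Cbx5 passed with array runs as a fixed factor. All 8 members differed among the 4 sites, as did 74.1% of all genes. The tumor change was smaller in mammary gland than in lung for Hat1 (-0.78) and Eed (-0.60), where 24.2% of all genes passed and 12% were smaller. On the direct arrays 3 of 6 members differed among the models, against 41.9% of all genes. The C3(1) Tag ratio was above the oncogene models for Hells (1.29), Hmgn2 (1.07), Cbx5 (0.72) and Smarca5 (0.66), where 11.7% of genes passed and 7% were higher. The p53 and Brca1 models were above the oncogene models for Hells (0.62), where 29% of genes passed and 14.4% were higher. This Hells call was lost on the deposited scale (0.56, adjusted p = 0.0548) and at an unmoderated p under 0.001 and 2-fold.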

How the results depend on the processing

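Counts are members that passed, of 8 on the reference and 6 on the direct arrays. The share of all genes that passed under each setting is not given here. A changed count is therefore not read as particular to the members. No called member changed sign under any alternative run, and uncalled ones did so in 0 to 6 cases each. Median-centred reference arrays, 1 feature per gene and run 6 alone changed no member's call. On the reference arrays only the first Cbx5 feature was run that way, and in a fit over features that one did not pass in mammary gland (adjusted p = 0.0524). The direct arrays held values for the second Cbx5 feature alone. Quantile normalization gave 4 in seminal vesicle, 2 in neu and 2 in ras tumors. With only the groups compared in the fit, 3 passed between the normal prostate and seminal vesicle. Array runs as a fixed factor left 6 in seminal vesicle (Hells and Eed lost), 6 in mammary gland (Cbx5 lost) and 2 for the prostate minus seminal vesicle change, as did the skeletal muscle covariate, chosen after seeing the data, which left 0 between the normal tissues of these sites. Within run 1, 5 passed for the mammary minus lung change and 3 between normal mammary gland and lung. Runs as a random block left 2 in p53fp/fp;WAP-cre and 1 in Brca1 tumors.

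At an unmoderated p under 0.001 and 2-fold, which asks for larger changes, 7 passed in prostate, 3 in seminal vesicle, 5 in mammary gland, 6 in lung, 5 between prostate and seminal vesicle tumors, 4 for the prostate minus seminal vesicle change, 0 for the mammary minus lung change, the normal comparisons and mammary against lung tumors, 3 in C3(1), 1 in p53-/-, 1 in p53fp/fp;WAP-cre, 0 in Brca1 and PyMT tumors, 0 among models, 2 for C3(1) and 0 for p53 and Brca1 against the oncogene models. On the deposited scale, where the median of all genes reached 0.36 (C3(1), 0.02 when centred), 2 passed in p53fp/fp;WAP-cre, 1 in myc, 1 in ras, 0 in PyMT tumors and 0 for p53 and Brca1 against the oncogene models. With genes measured on all arrays, which keeps 2 direct members, 2 passed in C3(1), 1 in p53fp/fp;WAP-cre, 1 in Brca1, 0 in neu tumors, 1 among models and 2 for C3(1) against the oncogene models. The cause of the other shifts was not tested.

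Leaving out 1 array at a time gave 7 in prostate, 6 to 8 in seminal vesicle, 6 to 7 in mammary gland, 8 in lung, 2 to 3 for the mammary minus lung change, 3 to 5 between mammary and lung tumors and 1 to 2 in each normal comparison. On direct arrays it gave 3 to 5 in C3(1), 2 to 3 in p53-/-, 1 to 4 in p53fp/fp;WAP-cre, 1 to 3 in Brca1, 0 to 1 in PyMT tumors, 2 to 5 among models, 2 to 5 for C3(1) and 1 to 2 for p53 and Brca1 against the oncogene models. The samples share only a number, and with it as a replicate block 7 passed in prostate, 7 in seminal vesicle (Eed lost, adjusted p = 0.0601), 7 in mammary gland, 8 in lung, 5 between mammary and lung tumors (Hmgb1 gained) and 2 among direct models.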
